A study of Homo sapiens with 8 samples.

Results

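The secreted growth factors of blood vessel formation were followed in CAKI1 cells, an established human renal carcinoma line, after treatment with iron-loaded holo-lipocalin-2 (hLcn-2). The genes were VEGFA, VEGFB, VEGFC and PGF of the VEGF family, PDGFA, PDGFB and PDGFC of the PDGF family, and FGF2, HBEGF and ANGPTL4. They were chosen by name, with earlier results of these data known. Counts among them that are set beside shares of all genes are therefore descriptive. Of the 10 genes, 9 had an entry among the 16782 genes of the deposited table. PGF, the placental growth factor, has no row in the table used here under its symbol or its identifier. All 9 genes passed the filter on low values, which left 15593 genes, and they are described below in every sample. Cells of both groups were serum starved for 24 h before the stimulation. The 4 treated samples then received hLcn-2 at 5 µg/ml during 24 h, and the 4 control samples received none. Samples carry the numbers 1 to 4 in each group. Nothing in the labels says that they came from separate cultures, so p-values measure the spread between these samples, which may be technical. CAKI1 is a single cell line grown without other cells, and the labels name no carrier or iron-free protein control among these 8 samples.

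VEGF ligands bind receptor tyrosine kinases on endothelial cells, with neuropilins as coreceptors, and drive the sprouting and permeability of blood vessels. PDGF ligands are dimers that act mainly on pericytes, fibroblasts and smooth muscle cells, which surround the vessel wall. In clear cell renal carcinoma, loss of the tumor suppressor VHL often stabilizes hypoxia-inducible factors. VEGFA is a well-known target of these factors, in tumors that are typically rich in vessels. Whether VHL is altered in CAKI1 was not tested here.

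The libraries read the 3′ end of each transcript and carried unique molecular identifiers, so that copies made by PCR are counted once. Values are normalized counts on the CPM scale, in which libraries are brought to a common size, and the reads behind them could be recovered exactly. The shallowest library held 1501563 reads and the deepest 13953090, and the median depth was 9216758 reads for controls against 5796022 for treated samples. Of 12 markers listed for renal epithelial cells 10 had an entry, with a summed level of 3042 to 3912 in controls and 3360 to 4136 in treated cells. Much of that sum came from VIM (1664 and 1874 on average), MET (956 and 941) and CDH2 (416 and 509). Mesenchymal cells express VIM and CDH2 as well. PAX2 was scarce (2.52 and 2.97), CDH6 averaged 102 and 84.3, and KRT19 and GGT1 had no entry. The renal lineage factor PAX8 averaged 226 and 223, and the epithelial genes KRT8 29.5 and 32.8, KRT18 96.9 and 92.6, EPCAM 23.2 and 26.4, and CDH1 29.8 and 36.5. Of 8 endothelial markers only ESAM had one, at 4.01 to 4.94 in controls and 2.47 to 5.00 in treated cells. Of 8 fibroblast and pericyte markers 3 had an entry, with sums of 21.5 to 29.3 and 16.5 to 26.2. Most of these sums came from the pericyte marker RGS5 (20.7 and 18.2 on average). COL1A1 averaged 4.63 and 3.58, and PDGFRB 0.577 and 0.725. Of 6 leukocyte markers 2 had an entry, with sums of 1.90 to 3.95 and 1.74 to 3.38. Bulk RNA cannot tell a smaller number of expressing cells from less RNA per cell.

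The promoters of 2 genes, PDGFA and ANGPTL4, are printed. PDGFA was the gene of the family whose groups did not overlap. Among the 7 genes with a promoter window, ANGPTL4 alone held ACGTG, the core letters searched for a hypoxia response element. Other forms of that core were not searched. RefSeq (GRCh38.p14) gave a window from 250 bases before to 50 bases after the start for 7 of the 10 genes, in 11 entries, and none for VEGFA, PDGFB and PDGFC. The 250 bases before the annotated start are printed 5′ to 3′ on the strand of the gene. The first lies at chr7:519847-520096 on the minus strand, with the GC box letters GGGCGG in capitals, and the second at chr19:8363905-8364154 on the plus strand, with CACGT, the reverse complement of ACGTG, in capitals.
PDGFA: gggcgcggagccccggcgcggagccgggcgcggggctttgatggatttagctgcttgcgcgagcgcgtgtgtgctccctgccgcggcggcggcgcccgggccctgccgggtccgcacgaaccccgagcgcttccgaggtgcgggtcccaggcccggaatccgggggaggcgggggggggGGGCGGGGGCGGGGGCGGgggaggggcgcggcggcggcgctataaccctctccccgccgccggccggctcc
ANGPTL4: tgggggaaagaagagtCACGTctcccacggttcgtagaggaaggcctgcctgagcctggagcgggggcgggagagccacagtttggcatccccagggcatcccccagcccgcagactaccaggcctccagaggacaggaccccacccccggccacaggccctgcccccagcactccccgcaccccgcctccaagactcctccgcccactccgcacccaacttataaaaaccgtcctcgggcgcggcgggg

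The PDGFA stretch held GGGCGG 3 times in direct succession, without overlap between the matches. On either strand, GGGCGG, the letters of the SP1 motif, was found in the windows of all 7 genes, and in 44.95% of all 35116 promoter windows of that length. ACGTG was found in the window of 1 of the 7 genes, against 21.41% of all windows, and TGATGNAA, the letters of the element bound by ATF4 with C/EBP factors, in 0 of the 7, against 3.617%. A match describes letters in a window, not a bound site.

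Among the 9 genes, VEGFA, PDGFA and PDGFB had the largest differences. Each was higher in hLcn-2-treated cells in all 4 same-numbered pairs, with group means 1.48, 1.54 and 2.13 times those of controls. Differences below are hLcn-2 minus control on the scale of log2(normalized count + 1), and were tested with limma across all 15593 genes with Benjamini-Hochberg adjustment. Without regard to the sample numbers, limma called 0 of the 9 genes, against a background of 0% of all genes. At an unadjusted p under 0.05 there were 3 of the 9 genes and 355 of all genes, and the quasi-likelihood test of edgeR called 0 as well, with 324 genes under 0.05. Same-numbered samples deviated together across genes, with correlations between 0.31 and 0.61. With the sample number as a block, limma called 1 of the 9 genes, VEGFA, against a background of 0.282% called in either direction and 0.218% called higher. On the recovered reads with the same block, edgeR called 2, VEGFA and PDGFA, against a background of 1.49%. DESeq2 with the block called the same 2 genes, against 1.11%. It gave VEGFC and PDGFB no adjusted p, and that share is of all 15593 genes, including those without an adjusted p.

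VEGFA, the main growth factor of endothelial cells, lies at chr6:43770184-43786487 on the plus strand of GRCh38. Its normalized counts were 93.9, 133, 136 and 75.1 in controls 1 to 4, and 155, 189, 178 and 127 in hLcn-2 samples 1 to 4. The groups overlapped, since hLcn-2 sample 4 lay below controls 2 and 3, but each treated sample lay above the control of its own number. The means were 110 ± 29.9 and 162 ± 27.5 (SD, n = 4 each), a log2 difference of 0.59 with a standard error of 0.20. Within pairs 1 to 4 the treated value was 1.65, 1.41, 1.31 and 1.69 times the control. The block narrowed the standard error to 0.087 and gave a 95% interval of 0.40 to 0.77. The adjusted p of VEGFA was 0.9999 in limma without the block, 0.0251 with it, 0.00256 in edgeR with the block and 7.8e-05 in DESeq2 with the block. Leaving out pair 1, 2 or 3 ended the call of limma, with adjusted p-values of 0.0503, 0.0853 and 0.0679, while without pair 4 it was 0.0399. On all 8 samples with the block, the call of limma also ended with a pseudocount of 0.1 (adjusted p 0.0578) and without the intensity trend (adjusted p 0.443). Between 114 and 1779 reads stood behind each value. Reads from the 3′ end do not separate VEGFA isoforms that differ by splicing upstream of the last exon.

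PDGFA, the A chain of PDGF, lies at chr7:497258-520296 on the minus strand. Its normalized counts were 39.5, 44.9, 50.4 and 33.6 in controls 1 to 4, and 60.03, 68.7, 60.2 and 69.6 in hLcn-2 samples 1 to 4. Every treated sample lay above every control, which made PDGFA the 1 gene among the 9 whose groups did not overlap. Of all genes tested, 0.891% were higher without overlap and 1.88% did not overlap in either direction. The means were 42.1 ± 7.22 and 64.6 ± 5.23 (SD, n = 4 each), a log2 difference of 0.62 with a standard error of 0.15. PDGFA had the sixth smallest p of all genes in limma without the block, with an adjusted p of 0.9999. With the block the 95% interval was 0.36 to 0.88, and the adjusted p was 0.0560 in limma, 0.00748 in edgeR and 0.00212 in DESeq2. Pair folds were 1.52, 1.53, 1.19 and 2.07, and in pair 3 the 95% counting interval of 0.959 to 1.48 included 1. These intervals cover counting error only.

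PDGFB, the B chain of PDGF, was scarce in these cells, with 2 to 60 reads per library. Its normalized counts were 3.45, 3.83, 0.705 and 1.32 in controls 1 to 4, and 5.34, 6.06, 4.94 and 3.48 in hLcn-2 samples 1 to 4. Treated sample 4 lay below control 2, so the groups overlapped, although every treated value was above that of its own pair. The means were 2.32 ± 1.54 and 4.95 ± 1.09 (SD, n = 4 each), with a log2 difference of 0.95 and a standard error of 0.35. Controls 3 and 4 rested on 4 and 2 reads, and the pair folds of 7.002 (2.02 to 30.6) and 2.64 (0.621 to 23.7, 95% counting intervals) were correspondingly wide. In pairs 1 and 2 the folds were 1.55 and 1.58. With the block the 95% interval of the log2 difference was 0.41 to 1.498, but the adjusted p was 0.142 in limma and 0.126 in edgeR, and DESeq2 with the block gave none. PDGFB was not called in any fit that gave it an adjusted p.

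**Figure D1:**
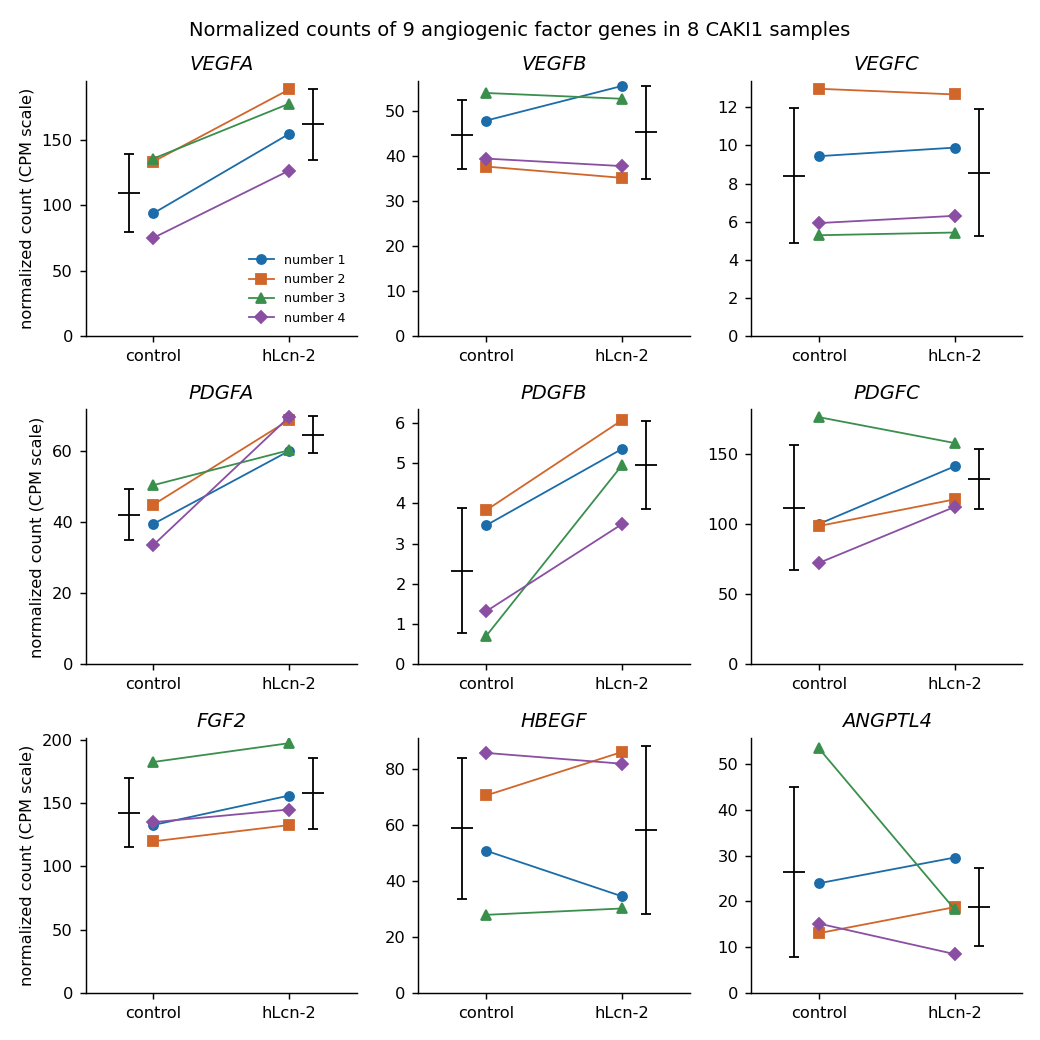
Normalized counts (CPM scale, vertical axes from 0) of the 9 genes in control and hLcn-2 samples, with lines joining samples of the same number and black bars for the mean ± SD of 4 samples. The lines of VEGFA, PDGFA, PDGFB and FGF2 rise in all 4 pairs, and only for PDGFA do the groups not overlap.

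PDGFC, a PDGF chain that is activated by proteolysis, measured 100.2, 98.8, 176 and 72.4 in controls 1 to 4, and 141, 118, 158 and 112 in hLcn-2 samples 1 to 4. It was higher in 3 of 4 pairs and lower in pair 3, where the fold was 0.895, and the groups overlapped. The log2 difference was 0.30 with a standard error of 0.23, and with the block its 95% interval was 0.057 to 0.55 with an adjusted p of 0.304 in limma.

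FGF2, a heparin-binding growth factor for endothelial cells and fibroblasts, measured 133, 119.9, 183 and 135 in controls 1 to 4, and 156, 133, 197 and 145 in hLcn-2 samples 1 to 4. It was the fourth gene that was higher in 4 of 4 pairs, but by only 0.10 to 0.23 on the log2 scale, and the groups overlapped. The log2 difference was 0.15 with a standard error of 0.17, the 95% interval with the block ran from -0.017 to 0.31, and the adjusted p in limma with the block was 0.472. NUDT6 on the opposite strand overlaps the last exon of FGF2, and since the use of strand in counting is not stated, reads of both genes may be mixed. Of all genes tested, 9.93% were higher in 4 of 4 pairs and 10.9% were lower in 4 of 4 pairs, against 4 and 0 of these 9 genes.

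VEGFB and VEGFC, the family members known for actions in heart and fat tissue and in lymphatic vessels, showed the smallest differences. VEGFB measured 48.0, 37.7, 54.1 and 39.5 in controls 1 to 4, and 55.7, 35.2, 52.8 and 37.8 in hLcn-2 samples 1 to 4, higher in 1 of 4 pairs. VEGFC measured 9.44, 13.0, 5.29 and 5.93, and 9.89, 12.7, 5.43 and 6.31, and was higher in 3 of 4 pairs. For both, the values differed more between sample numbers than between the groups, which overlapped. With the block, the 95% interval of the log2 difference was -0.22 to 0.22 for VEGFB and -0.33 to 0.40 for VEGFC, with upper bounds below the difference of VEGFA, and their adjusted p-values in limma were 0.991 and 0.956.

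HBEGF, an EGF-like ligand that is shed from the membrane, measured 50.7, 70.4, 27.9 and 85.6 in controls 1 to 4, and 34.5, 85.9, 30.1 and 81.8 in hLcn-2 samples 1 to 4. It was higher in 2 of 4 pairs, and pairs 1 and 2 differed in opposite directions beyond counting error, with folds of 0.680 (0.599 to 0.770) and 1.22 (1.10 to 1.35, 95% counting intervals). The log2 difference was -0.054 with a standard error of 0.39, and with the block the 95% interval was -0.33 to 0.22 and the adjusted p was 0.901 in limma.

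ANGPTL4, a secreted inhibitor of lipoprotein lipase that also acts on endothelial cells, measured 23.9, 13.1, 53.4 and 15.1 in controls 1 to 4, and 29.6, 18.7, 18.3 and 8.48 in hLcn-2 samples 1 to 4. Control 3 stood far above the other samples, and pairs 1 and 2 were higher with hLcn-2 while pairs 3 and 4 were lower. The pair folds were 1.23, 1.44, 0.342 and 0.560. The log2 difference was -0.37 with a standard error of 0.43, and became 0.03 without control 3. With the block, the 95% interval was -0.93 to 0.18 and the adjusted p was 0.612 in limma.

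**Figure D2:**
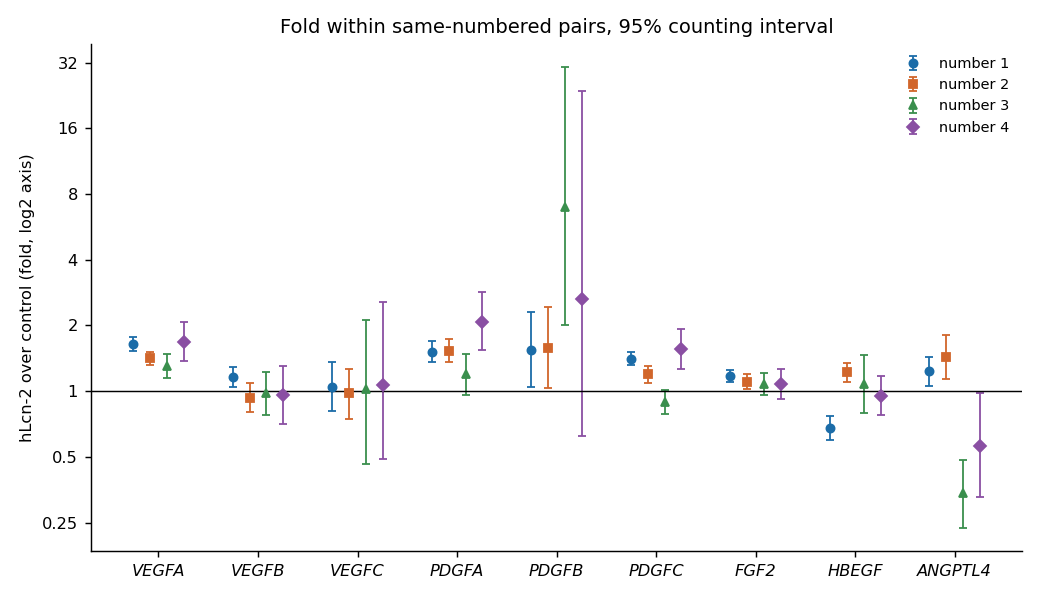
Fold of hLcn-2 over control within each same-numbered pair (log2 axis), with 95% counting intervals from the recovered reads. VEGFA lies between 1.31 and 1.69 in all pairs, HBEGF and ANGPTL4 lie on both sides of 1, and the intervals of PDGFB are the widest.

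Over the 9 genes, 7 log2 differences were above 0 and 2 below, with a median of 0.15. Over all genes tested, 7824 were above 0 and 7769 below, with a median of 0.00083. The 9 genes were chosen with earlier results of these data known, so this contrast is not a test.

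**Figure D3:**
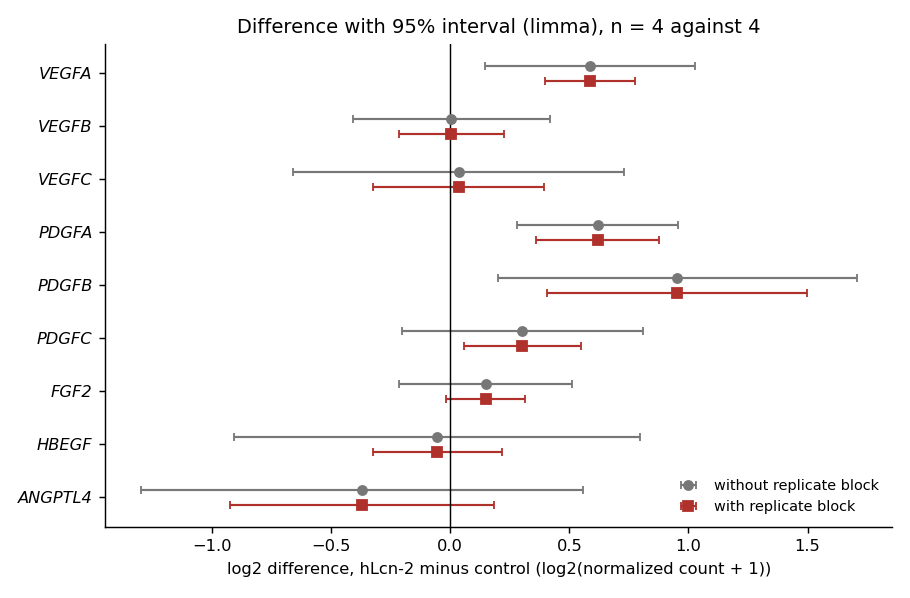
Log2 difference, hLcn-2 minus control, on log2(normalized count + 1) with 95% intervals of limma without (grey) and with (red) the sample number as a block, n = 4 against 4. The intervals of VEGFA, PDGFA and PDGFB lie above 0 in both fits, and that of PDGFC in the fit with the block.

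The genes most like VEGFA over the 8 samples, by the root mean square difference of centred log2 values, were ATP6AP1L (0.078), PABPC4 (0.14), SLC30A7 (0.15), GABPA (0.15) and LATS1 (0.16), against a median of 0.50 over all genes. PDGFA came 67th in that order, at 0.22. For PDGFA the most like genes were FMC1 (0.11), the gene with the identifier ENSG00000218596 (0.12), ILF2 (0.13), EXOSC6 (0.13) and RPS7P3 (0.14), with a median of 0.45, and VEGFA came 99th.

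The receptors, other ligands and regulators around these factors were counted on 6 lists, with 134 of 164 listed genes tested. Without the block limma called 0 of the 134, against a background of 0% of all genes. With the block limma called 1, CEBPB, against 0.282%, and edgeR called 6, against 1.49%. The lists were chosen with earlier results of these data known, so these counts are descriptive. Of 26 receptors and coreceptors 19 were tested and 0 were called with the block, with a median log2 difference of 0.042. The endothelial receptors KDR, FLT1, FLT4, TEK and TIE1, and PDGFRA and ERBB4, have no row in the table used here, and PDGFRB was near the limit of detection, at 0.577 in controls and 0.725 in treated cells. NRP1, a VEGF coreceptor, averaged 186 and 188. The receptors with the smallest p were FGFRL1 (32.9 in controls and 43.7 in treated cells), ERBB2 (3.19 and 4.33) and the heparan sulfate coreceptor SDC4 (146 and 176), each higher in 4 of 4 pairs and none called.

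Of 38 other angiogenic secreted factors 27 were tested, and limma with the block called 0, with a median of -0.025. JAG1, a Notch ligand, averaged 55.6 ± 4.91 and 74.4 ± 7.06 (SD, n = 4 each) without overlap, and its adjusted p was 0.0743 in limma and 0.0245 in edgeR, both with the block. Amphiregulin (AREG), an EGF receptor ligand, was 28.9 and 18.6 on average and lower in 4 of 4 pairs, with adjusted p-values of 0.0569 in limma and 0.0152 in edgeR with the block. On this list 1 gene was higher and 3 were lower in 4 of 4 pairs, against 9.93% and 10.9% of all genes tested. CXCL8 (61.3 and 42.5) and EREG (11.4 and 8.49) were also lower in 4 of 4 pairs. Their adjusted p-values in limma with the block were 0.280 and 0.310. AREG, CXCL8 and EREG were named after their values were seen. The vasodilator peptide gene ADM averaged 61.5 and 47.5, and CTGF, a matricellular factor, 23.1 and 18.1.

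Among 20 angiogenesis inhibitors 14 were tested, 0 were called by limma with the block or edgeR with it, and the median was -0.042. Those with the smallest p were SEMA3D (0.957 and 0.222), THBS1 (34.7 and 29.0), which encodes thrombospondin-1, and VASH2 (1.72 and 1.02), which was listed beside the inhibitor VASH1 but is known to promote angiogenesis. Of 26 genes for the processing and release of these factors 23 were tested, with 0 called by limma with the block and a median of -0.042. ADAM9, a membrane protease, averaged 172 and 229, with adjusted p-values of 0.102 in limma and 0.0304 in edgeR with the block. The others with the smallest p were GPIHBP1 (2.21 and 1.13) and MMP9 (1.37 and 0.581), both scarce.

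Of 30 transcriptional regulators of these factors 29 were tested, and 1 was called by limma with the block. CEBPB, a C/EBP transcription factor, averaged 210.2 ± 34.1 in controls and 309 ± 37.4 in treated cells (SD, n = 4 each), a log2 difference of 0.56. It was higher in 4 of 4 pairs, with adjusted p-values of 0.9999 in limma without the block, 0.0317 with it and 0.00292 in edgeR with the block. Limma with the block called 0 list genes, CEBPB included, with a pseudocount of 0.1, without the intensity trend, and without pair 1, 2 or 3. ZFP36, which promotes decay of AU-rich mRNAs, averaged 8.21 and 15.3 and was called by edgeR with the block (adjusted p 0.0148) but not by limma (0.124). ARNT, the partner of the hypoxia-inducible factors, averaged 23.3 and 31.955, higher in 4 of 4 pairs and not called. Their oxygen-regulated subunits HIF1A (231 and 220) and EPAS1 (58.9 and 61.6) and the stress factor ATF4 (350 and 405) were not called either. Of 24 hypoxia-inducible genes 22 were tested and 0 called by limma with the block. Their differences were above 0 for 17 and below for 5, with a median of 0.19. Over all genes tested, 7824 were above 0 and 7769 below, with a median of 0.00083. This list too was chosen with earlier results of these data known. LOX, a matrix crosslinking enzyme, averaged 50.8 and 67.3, with adjusted p-values of 0.0900 in limma and 0.0340 in edgeR with the block. CA12, a carbonic anhydrase, averaged 162 and 193, and AK4, a mitochondrial adenylate kinase, 51.0 and 62.1. Among glycolytic genes on the list, PGK1 (639 and 578), LDHA (788 and 749) and PFKFB3 (115 and 91.6) averaged lower in treated cells. HK2 (27.6 and 32.1) and PFKFB4 (4.80 and 5.18) averaged higher. Of the glucose transporters, SLC2A1 averaged higher (190 and 206) and SLC2A3 about equal (124 and 124).

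**Figure D4:**
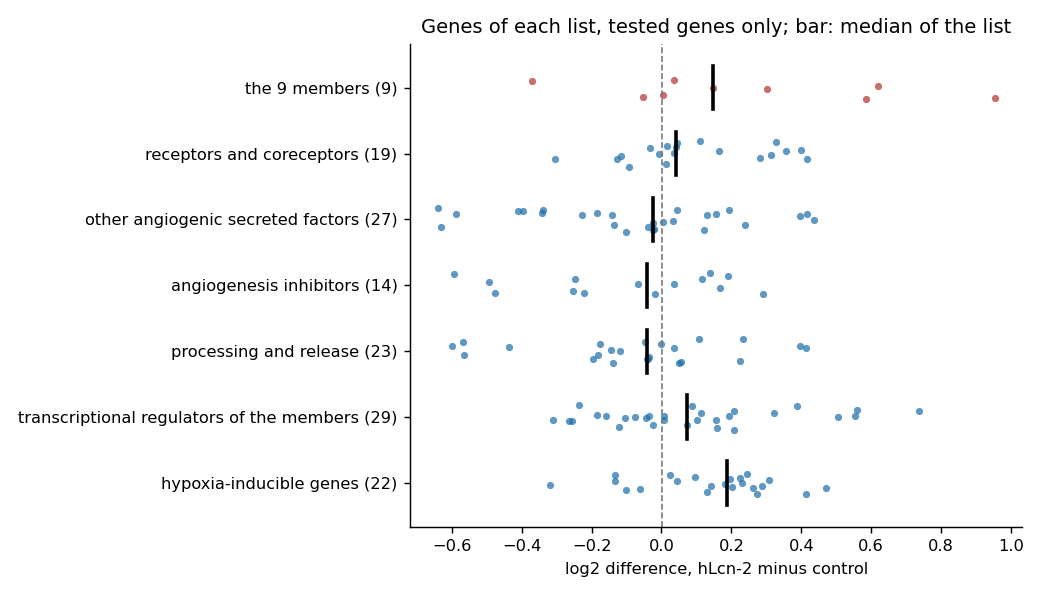
Log2 difference, hLcn-2 minus control, of the 9 genes (red) and of the tested genes on each of the 6 lists (blue, number tested in brackets), with a black bar for the median of each list. The medians lie between -0.042 and 0.19, and genes of every list lie on both sides of 0.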

How the data were processed

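Expression was measured in 8 samples of CAKI1 cells, 4 controls and 4 treated with hLcn-2. Per the study's methods, the authors prepared QuantSeq 3′ libraries with UMI, sequenced them single-end for 75 cycles, used STAR for alignment to GRCh38, reduced reads of one UMI to a single read and took gene counts from HTSeq. Genes with no counts were removed. Aligner and counter versions are not given in the sources used here. The deposited values are a scaled signal, normalized counts on the CPM scale after a scaling factor between 0.970 and 1.06 that the authors applied. All 134256 values came out as whole reads within 0.001. A TXNIP cell with a decimal comma was read as a decimal point.

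Genes that reached 1 CPM in 2 or more samples were tested with limma 3.58.1 in R 4.3.3, two-sided, with an intensity trend, on log2(normalized count + 1), which understates changes of scarce genes. All 8 samples entered the fit, and p-values were adjusted over all genes by the Benjamini-Hochberg method. Calls have an adjusted p under 0.05. Same-numbered samples were taken as pairs because the correlation of their deviations from the group means was above 0.1 in all 4 pairs (mean 0.50). Control 1 with hLcn-2 sample 2 (0.23) and control 2 with hLcn-2 sample 1 (0.18) also exceeded 0.1. Both lay below the lowest same-numbered value of 0.31, and the other differently numbered combinations were negative. Alternatives were a replicate block, recovered reads tested by edgeR 4.0.16 and by DESeq2 1.42.0, pseudocounts of 0.1 and 5, other filters and scalings, no trend and leaving out samples. The models were tested on simulated data.

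The members and gene lists were chosen with earlier results of these data known. Named are all members, genes of each list called with or without the block and the 3 of smallest p without it, and the 5 genes most like VEGFA and PDGFA, beside further list genes named for their role or after their values were seen. Positions are from GENCODE 44. Depth limits scarce genes: 3 reads were worth 0.211 in the deepest and 1.98 in the shallowest library.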

Additional observations from a re-analysis of the deposited data

How the results depend on the processing

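VEGFA, PDGFA, PDGFB, PDGFC and FGF2 kept their direction under every alternative in which they were tested. Leaving out samples gave log2 differences of 0.42 to 0.70 for VEGFA, 0.48 to 0.74 for PDGFA, 0.67 to 1.18 for PDGFB, 0.12 to 0.55 for PDGFC and 0.036 to 0.27 for FGF2. The differences of VEGFB, VEGFC, HBEGF and ANGPTL4 changed sign under some alternatives, that of ANGPTL4 without control 3 or pair 3. Without single samples, VEGFB ranged from -0.10 to 0.11, VEGFC from -0.16 to 0.25, HBEGF from -0.37 to 0.20 and ANGPTL4 from -0.62 to 0.032. Without single pairs and with the block, VEGFB ranged from -0.064 to 0.039, HBEGF from -0.17 to 0.11 and ANGPTL4 from -0.66 to 0.0051. VEGFB was also -0.026 without the scaling factor, which moved the median of all genes to -0.027, and HBEGF was 0.030 in edgeR without the block. The cause was not tested.

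Pairing the samples by number changed the calls most. Limma called 0 genes without the replicate block and 44 with it, including 1 of the 9 genes and 1 list gene. With the block, a pseudocount of 0.1 gave 8 genes, none of them among the 9 (VEGFA at an adjusted p of 0.0578 in limma). Keeping genes with a mean of 10 CPM or more gave 85 genes, 2 of the 9 and 2 list genes. Median-ratio size factors gave 43, 1 and 1. EdgeR with the block called 233 genes, 2 of the 9 and 6 list genes, and DESeq2 with the block 173, 2 and 5. Without the intensity trend limma called 0 genes with the block. Leaving out pair 1, 2, 3 or 4 with the block gave 14, 3, 0 and 58 genes, 0 to 1 of the 9 and 0 to 2 list genes. The values of VEGFC and PDGFB are limited by depth, with as few as 9 and 2 reads in a library.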
